A study of Homo sapiens with 6 samples.

Results

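The genes described here build and drive mitosis: mitotic cyclins and their kinase, the enzymes that switch that kinase on and off, spindle proteins and the machinery of cytokinesis. They are 43 genes, chosen by symbol from a list drawn up with earlier results of these data known. All 43 were found among the 26485 gene symbols of the count tables and passed the filter on low counts. The sequenced RNA came from AF22, a human neural stem cell line grown from induced pluripotent cells, with a knockdown group and a control group of 3 libraries each. In the knockdown group BMI1 and its read-through transcript COMMD3-BMI1 were targeted. The controls are labelled shControl and wild type, that is, the same line with a control for short hairpin RNA, without the targeted knockdown. All libraries come from this 1 cell line, and the sources used here do not give the hairpins, their delivery or the time after it. The libraries of each group are numbered 1 to 3 in the titles, which do not say whether they came from separate cultures, so p-values measure the spread between these libraries and it may be technical.

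Entry into mitosis is driven by CDK1 bound to cyclin B. WEE1 and PKMYT1 hold that complex inactive by phosphorylation, and phosphatases of the CDC25 family release it, helped by Aurora and Polo-like kinases. The anaphase-promoting complex then marks securin and the cyclins for destruction, separase cuts the rings that hold sister chromatids together, and a contractile ring divides the cell. Most of these genes are transcribed periodically, with a peak in G2 and M phase, so their RNA in a bulk sample follows the share of cycling cells as well as the level in each cell. In bulk RNA, fewer dividing cells and less RNA per cell cannot be told apart. BMI1, a Polycomb protein, is known for sustaining self-renewal of neural stem cells.

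Total counts ran from 4962745 to 9640349 in knockdown libraries and from 5496683 to 6870122 in control libraries. BMI1 was at 39.8, 21.4 and 26.1 CPM in knockdown libraries 1, 2 and 3, against 84.9, 89.8 and 87.3 CPM in control libraries 1, 2 and 3 (CPM is the count scaled to a common library total with TMM factors), so the groups did not overlap. In edgeR's quasi-likelihood test this was a log2 fold change of -1.61 (SE 0.194), and the p adjusted over all genes was 0.163. The 3 pairs of same-numbered libraries deviated together from their group means across genes, which the titles do not explain. A second fit with the library number as a block, called the paired fit below, is therefore given beside the unpaired one. In the paired fit BMI1 had a log2 fold change of -1.64 (SE 0.155, adjusted p 0.00835). The unpaired edgeR fit called 0 genes. Where a gene is said below to fall or rise, it passed in the paired fit only, and that pairing is not stated in the titles. Knockdown library 2 stood apart on the first principal component, at 40.2 against -12.4 and 11.5 in the other knockdown libraries and -25.5 to -4.07 in the control libraries. Of the neural stem cell markers, SOX2, NES and VIM were present in every library, while the Notch target HES5 was at 0 counts in all 6. LMO3 was at 0 to 0.13 CPM. Of the neuronal markers, RBFOX3 and ELAVL4 were at 0 in all 6 libraries. DCX was at 0.21 to 0.54 CPM in knockdown and 0.14 to 1.28 CPM in control libraries. STMN2 was at 0 in the knockdown libraries and at 0 to 0.29 CPM in the control libraries. Other neuronal markers were present. Among them, MAP2 was at 493 to 592 CPM in knockdown and 467 to 522 CPM in control libraries. NEFM was at 61.5 to 172 CPM in knockdown and 196 to 239.9 CPM in control libraries. The pluripotency markers NANOG and ZFP42 were also at 0 in all 6 libraries, whereas POU5F1 was at 57.0 to 73.5 CPM in knockdown and 66.6 to 87.4 CPM in control libraries, and LIN28A at 259.5 to 377 CPM in knockdown and 214 to 338 CPM in control libraries.

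Of the 43 mitotic genes, 42 were lower in the knockdown library than in its numbered control in all 3 pairs, where 26.7% of the 12937 genes tested were. WEE1, the inhibitory kinase, was the single exception, and it was slightly higher in every pair. In the paired fit 37 of the 43 fell and none rose at an adjusted p of 0.05, where 5.39% of all genes tested were called lower and 4.63% higher. The median log2 fold change of the 43 genes was -0.64 in the paired fit, where that of all genes tested was -0.0045. In the unpaired fit 0 of the 43 passed, as for all genes, where 0% were called lower. Their unpaired adjusted p-values ran from 0.258 to 0.825, at a median log2 fold change of -0.60, and 29 had an unadjusted p under 0.05 in the lower direction, where 7.88% of all genes tested did. All 3 knockdown libraries lay below all 3 control libraries in 25 of the 43 genes, where 11.2% of all genes tested did so. Mean levels in knockdown libraries ran from 47.6% of the control mean, for CDCA3, to 103.6%, for WEE1, with a median of 66.2% over the 43 genes. Since the 43 genes were listed with earlier results of these data known, their counts beside the shares of all genes are descriptions.

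**Figure D1:**
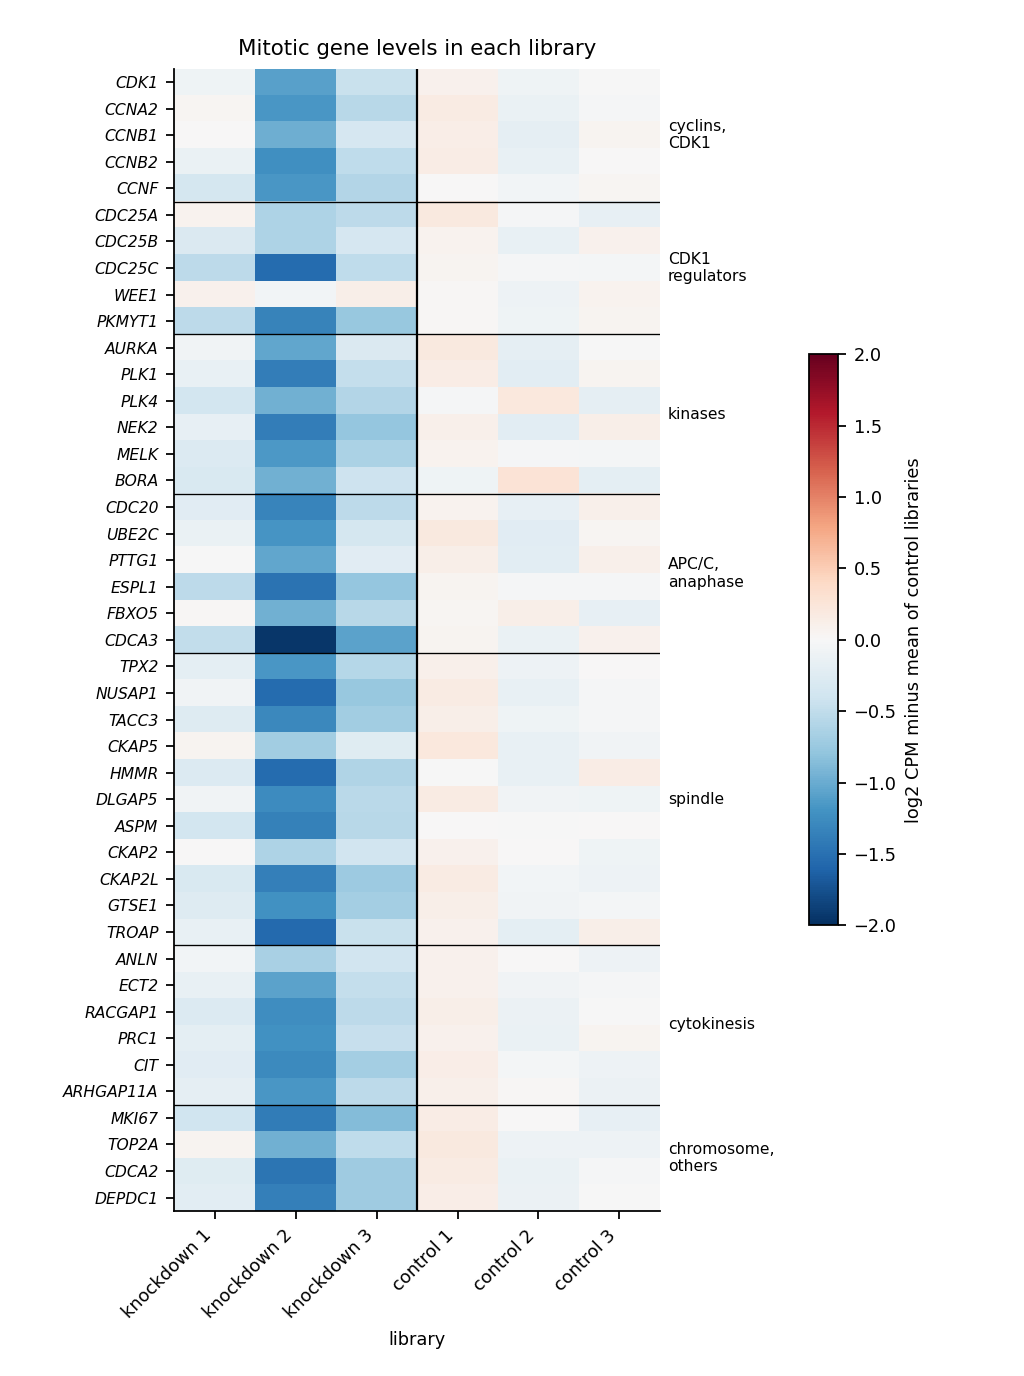
Level of each of the 43 mitotic genes (rows, grouped by role) in each library (columns), as log2 CPM minus the mean of the 3 control libraries; blue is lower and red is higher. Knockdown library 2 is the darkest blue column, knockdown library 1 is close to the control libraries for many genes, and WEE1 is pale throughout.

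The fall differed in size between the pairs. Over the 43 genes, pair 1 had a median log2 difference of -0.28, pair 2 of -1.14 and pair 3 of -0.52. Pair 2 had the lowest difference in 42 of the 43 genes, the exception being WEE1, and 40 genes had the order pair 2, pair 3, pair 1 from the lowest up. Over all genes tested, pair 2 was the lowest of the pairs in 41.4%. BMI1 itself had the same order, at -1.09 in pair 1, -2.05 in pair 2 and -1.73 in pair 3. A relation between both was not tested over these 3 pairs. Knockdown library 1 was below every control library in 25 of the 43 genes, while knockdown libraries 2 and 3 each were in 42. Shares of all genes tested were not computed for these library counts or for the order of the 3 pairs. Both are therefore descriptions without a background. The summed level of the 43 genes was 5425, 2845 and 4186 CPM in knockdown libraries 1, 2 and 3, against 6455, 5582 and 5807 CPM in control libraries 1, 2 and 3, so the sums did not overlap. The coefficient of variation of a gene had a median of 33.4% over knockdown libraries and 9.69% over control libraries. The same value was not computed over all genes tested. Knockdown library 2 also stood apart over all genes tested, on the first principal component.

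**Figure D2:**
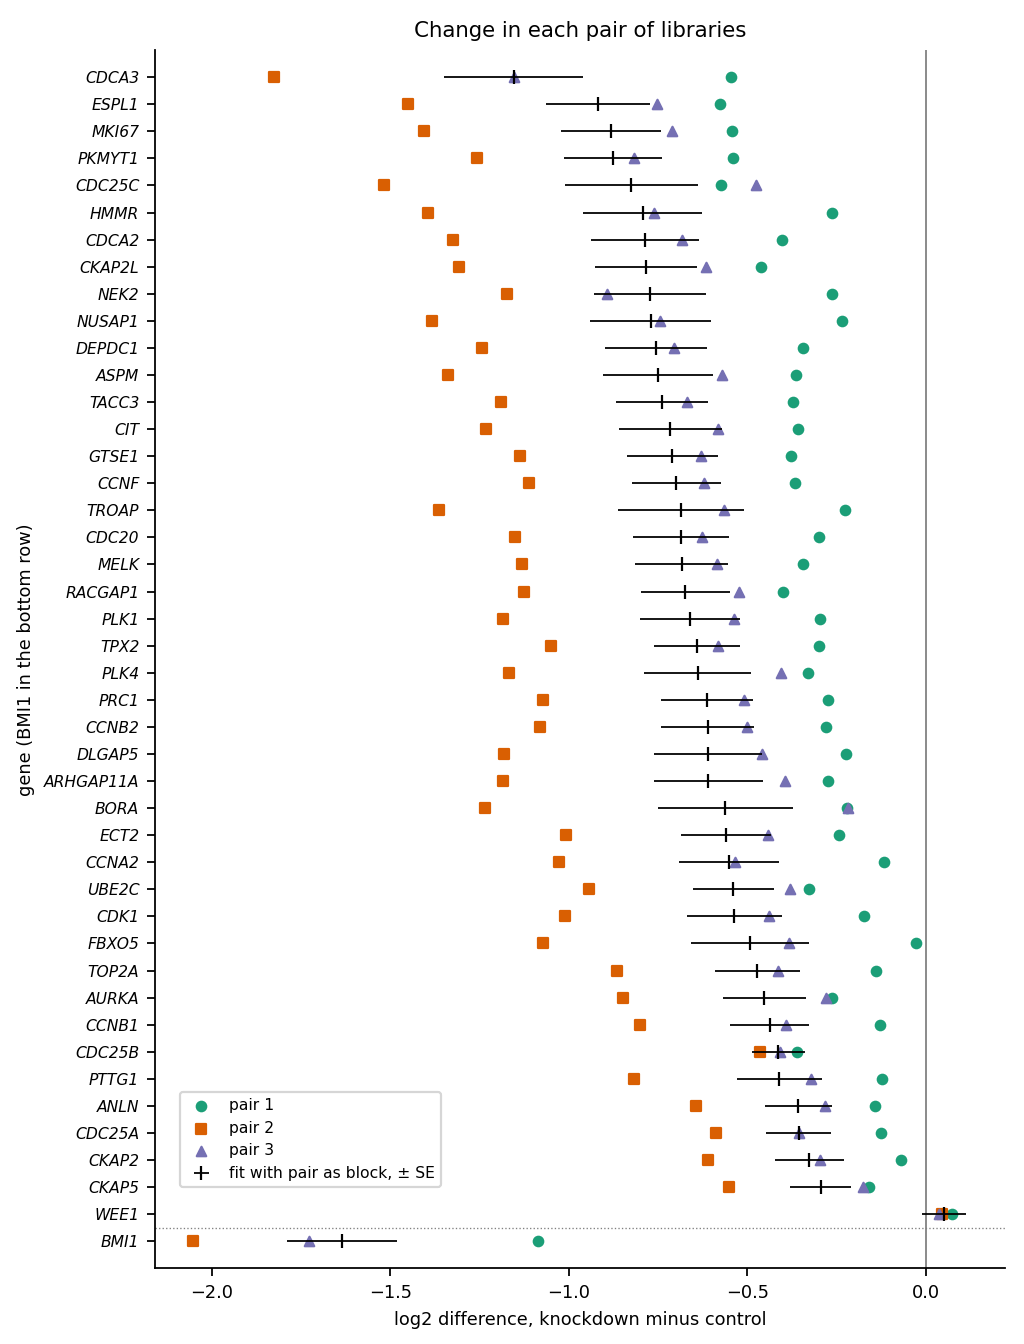
Log2 difference of each gene, knockdown minus control, in the 3 pairs of same-numbered libraries (coloured symbols), with the log2 fold change of the paired fit and its SE (black), ordered by that fold change; BMI1 is in the bottom row. Pair 2 lies farthest left in 42 of the 43 mitotic genes, and WEE1 sits just right of 0 in all 3 pairs.

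The count of 37 was recomputed without the libraries in doubt. Without pair 2, which holds the knockdown library that stood apart, the paired fit called 40 of the 43 lower (8.55% of all genes tested), at a smaller median log2 fold change of -0.43. It called 40 without pair 1 (5.55%) and 37 without pair 3 (4.14%). These fits hold 4 libraries and leave 1 residual degree of freedom, so their estimate of the spread rests mostly on other genes. With every library thinned to the smallest total it called 35 (4.85%), and paired DESeq2 called 30 (2.71%). Unpaired DESeq2 called 4, namely PKMYT1, ESPL1, CDCA3 and MKI67 (0.618%). The unpaired edgeR test called 31 once knockdown library 1 was left out (3.2%), at a median of -0.84, and 0 without any other single library. Without knockdown library 2 the unpaired median was -0.38.

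The promoters of these genes were searched for 3 short motifs that are known from periodically expressed genes. The cell cycle homology region, or CHR (TTTGAA), is known to be bound by the DREAM and MYB-MuvB complexes, which repress such genes in resting cells and activate them in G2. The CCAAT box (CCAAT) is bound by NF-Y, and E2F factors bind motifs of the kind searched here (TCCCGCC or TTGGCGC). Matches on either strand were counted in RefSeq windows of 300 bases, 250 before and 50 after a transcription start (GRCh38.p14), of which 35 of the 43 genes had at least 1. The other 8 are WEE1, PKMYT1, AURKA, UBE2C, TPX2, TROAP, RACGAP1 and CDCA2. A CHR was found in 25 of these 35 genes (71.4%), where 14.0% of the 9741 tested genes with a window held one. For the CCAAT box the shares were 30 of 35 (85.7%) and 43.9%, and for the E2F-like motifs 17 of 35 (48.6%) and 34.7%. In 14 of the 35 genes (40.0%) a CHR began within the 50 bases before the start, where 2.54% of the tested genes had it there. Motifs are short, genes with several starts have several windows, and a match is a description of the letters and no sign of binding. Only the letters given were searched, so other forms of a motif would be missed.

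Stretches of 100 bases that end at the base before the transcription start are printed here for 7 genes, to show where the motifs lie; each runs 5′ to 3′ along the gene's strand, with CHR (TTTGAA, or TTCAAA where it lies on the other strand) and CCAAT box (CCAAT, or ATTGG on the other strand) in capitals. The first 5 genes fell in the paired fit and hold a CHR close to the start, with a CCAAT box upstream of it; in MKI67 the second CHR runs into a CCAAT box on the other strand and the capitals merge. CKAP5, whose change did not pass, has a CHR farther upstream in the printed stretch and a second one that begins 17 bases after the start, both on the other strand. CDC25A, at a paired log2 fold change of -0.36, has none in its window. Sequences are from RefSeq, build GRCh38.p14.
CCNB2, chr15:59105046-59105145, plus strand: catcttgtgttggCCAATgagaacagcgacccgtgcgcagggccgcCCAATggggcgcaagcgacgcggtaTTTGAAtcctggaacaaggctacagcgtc
PLK1, chr16:23678789-23678888, plus strand: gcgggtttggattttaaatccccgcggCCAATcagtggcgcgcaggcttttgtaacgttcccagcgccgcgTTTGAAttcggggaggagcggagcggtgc
ESPL1, chr12:53268199-53268298, plus strand: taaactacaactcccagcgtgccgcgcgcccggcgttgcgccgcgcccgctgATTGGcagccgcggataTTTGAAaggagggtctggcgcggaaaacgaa
PRC1, chr15:90994536-90994635, minus strand: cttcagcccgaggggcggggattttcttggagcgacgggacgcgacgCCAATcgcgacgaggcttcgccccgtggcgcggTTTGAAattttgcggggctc
MKI67, chr10:128126424-128126523, minus strand: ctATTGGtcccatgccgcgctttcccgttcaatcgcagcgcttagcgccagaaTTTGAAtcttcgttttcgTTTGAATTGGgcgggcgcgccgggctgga
CKAP5, chr11:46846281-46846380, minus strand: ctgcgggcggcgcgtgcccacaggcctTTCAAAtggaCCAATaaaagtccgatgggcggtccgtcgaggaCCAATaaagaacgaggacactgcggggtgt
CDC25A, chr3:48188418-48188517, minus strand: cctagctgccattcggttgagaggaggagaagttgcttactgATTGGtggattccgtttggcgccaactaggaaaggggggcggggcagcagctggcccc

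In CCNB2 and PLK1 the CHR began 29 bases before the start, in ESPL1 31 and in PRC1 20. The 25 mitotic genes with a CHR had a median log2 fold change of -0.69 in the paired fit and 22 of them fell. The 10 without the letters TTTGAA had a median of -0.50 and 8 of them fell, among them CCNA2, CCNB1 and NEK2. The fold changes overlapped, from -1.15 to -0.30 with a CHR and from -0.77 to -0.33 without one, and the difference was not tested. For the CCAAT box the medians were -0.65 with and -0.61 without a match, and for the E2F-like motifs -0.61 with and -0.67 without. Across all genes tested with a window, 9.16% of the 1365 with a CHR and 5.15% of the 8376 without one were called lower in the paired fit. For the CCAAT box these shares were 6.95% of 4272 with and 4.74% of 5469 without a match. For the E2F-like motifs they were 7.90% of 3378 with and 4.54% of 6363 without. The mitotic genes with a window are included in these shares, and differences between motifs were not tested.

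**Figure D3:**
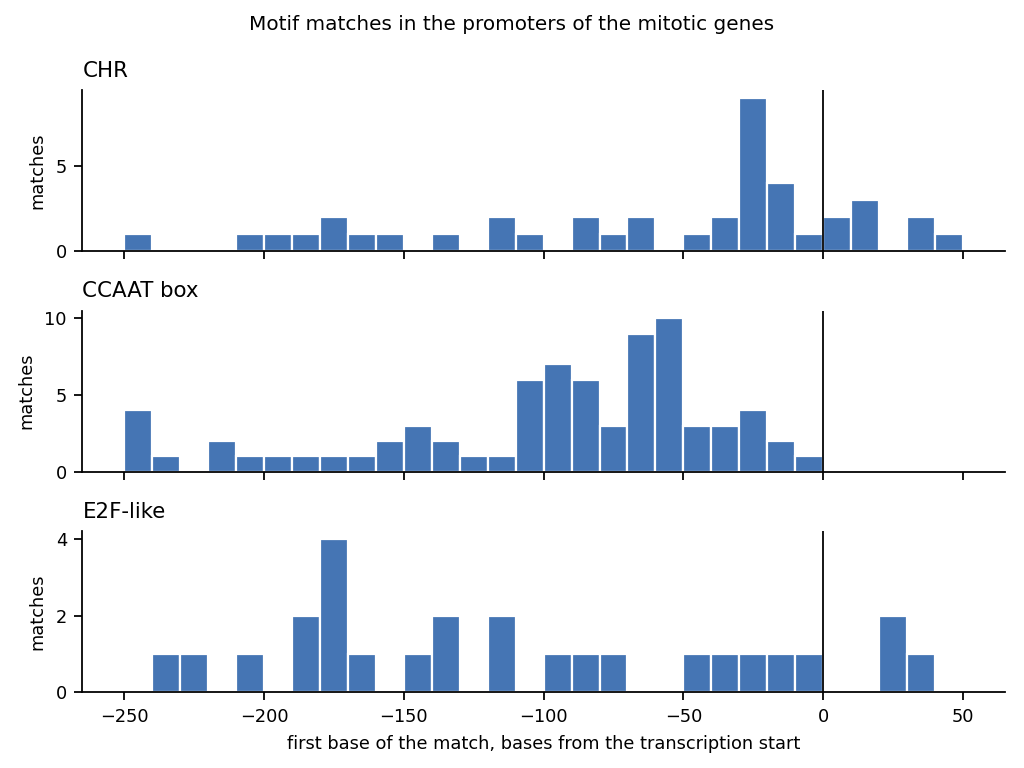
Positions of CHR, CCAAT box and E2F-like matches in the RefSeq promoter windows of 35 mitotic genes, as the distance in bases of the first base of a match from the transcription start (bins of 10 bases, either strand; a match shared by overlapping windows of 1 gene counts once per window). CHR matches pile up just before the start, and CCAAT boxes lie mostly upstream of them.

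The mitotic cyclins and CDK1 fell as a group in the paired fit, with all 5 genes called, while none passed in the unpaired one. CCNB1, which encodes cyclin B1, was at 195, 98.5 and 154 CPM in knockdown libraries 1, 2 and 3, against 213, 172 and 202 CPM in control libraries 1, 2 and 3. Knockdown library 1 lay within the control range, so the groups overlapped. Its mean was 149 ± 48.4 CPM in knockdown and 196 ± 21.5 CPM in control libraries (SD, n = 3 each), with a paired log2 fold change of -0.44 (SE 0.111, edgeR adjusted p 0.0436). CCNF, the cyclin F gene, whose product is a substrate receptor of a ubiquitin ligase, had the lowest paired log2 fold change of the group, -0.70 (SE 0.125, edgeR adjusted p 0.0248). It was at 64.4, 36.6 and 54.8 CPM in the knockdown libraries and 83.1, 79.3 and 84.5 CPM in the control libraries, with no overlap. The unpaired edgeR adjusted p was 0.442 for CCNB1 and 0.258 for CCNF. CDK1, the kinase gene, had a paired log2 fold change of -0.54, CCNA2 (cyclin A2) of -0.55 and CCNB2 (cyclin B2) of -0.61.

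The enzymes that set CDK1 activity included both WEE1, which did not pass, and PKMYT1, among those with the lowest fold changes; 4 of the 5 fell in the paired fit. PKMYT1, the membrane-bound inhibitory kinase, was at 25.4, 14.3 and 21.4 CPM in knockdown libraries 1, 2 and 3 and 37.0, 34.6 and 38.0 CPM in the control libraries. The groups did not overlap, and PKMYT1 fell to 55.8% of the control mean, with a paired log2 fold change of -0.88 (SE 0.137, edgeR adjusted p 0.0222). Unpaired, its edgeR adjusted p was 0.258. WEE1, the nuclear inhibitory kinase, was at 152, 138 and 154 CPM in the knockdown libraries and 145, 133 and 151 CPM in the control libraries, and the groups overlapped. Its paired log2 fold change was 0.05 (SE 0.061, edgeR adjusted p 0.625), and its differences in pairs 1, 2 and 3 were 0.07, 0.04 and 0.04. The difference in response between WEE1 and PKMYT1 was not tested. All 3 phosphatases fell in the paired fit: the paired log2 fold change was -0.83 for CDC25C, -0.41 for CDC25B and -0.36 for CDC25A. CDC25B differed little between pairs, at -0.36, -0.46 and -0.41, where CDC25C went as low as -1.52 in pair 2. CDC25A and CDC25B were no longer called without pair 3 or with paired DESeq2.

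**Figure D4:**
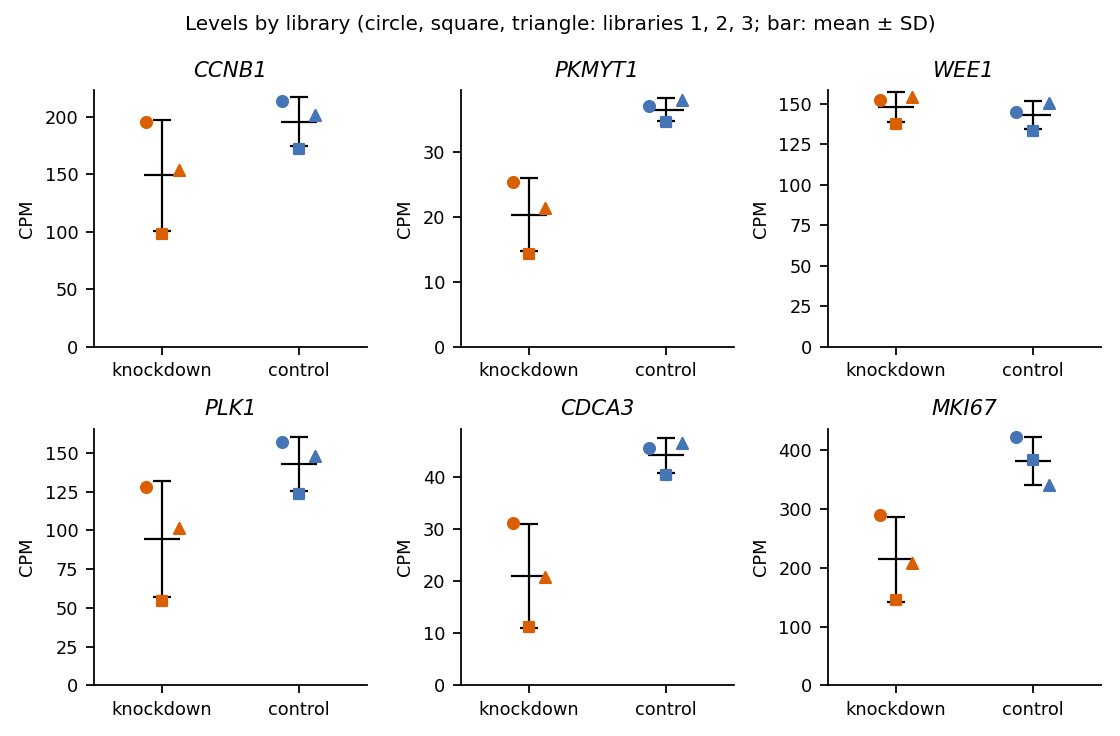
CPM of 6 mitotic genes in the knockdown libraries (left, orange) and the control libraries (right, blue); circles, squares and triangles are libraries 1, 2 and 3, and bars give the mean ± SD of 3 libraries. Library 2 is the lowest of the knockdown libraries in each panel, and the groups are apart in PKMYT1, CDCA3 and MKI67, overlap in CCNB1 and PLK1, and are level in WEE1.

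Of the 6 genes of mitotic kinases and their activator, 5 fell in the paired fit. PLK1, the Polo-like kinase of mitotic entry and spindle assembly, was at 128, 54.1 and 102 CPM in knockdown libraries 1, 2 and 3, against 157, 123 and 148 CPM in the control libraries. Knockdown library 1 lay just above the lowest control library, and the paired log2 fold change was -0.66 (SE 0.140, edgeR adjusted p 0.0292). In the unpaired edgeR fit PLK1 did not pass (adjusted p 0.348). PLK4, the kinase that starts centriole duplication, was at 48.5, 32.0 and 41.4 CPM in knockdown and 61.1, 72.2 and 55.0 CPM in control libraries. Here the groups did not overlap, and PLK4 fell (paired log2 fold change -0.64). NEK2, a centrosomal kinase gene, was at 36.9, 15.6 and 24.1 CPM in knockdown libraries and 44.4, 35.6 and 44.9 CPM in control libraries, and had the lowest paired log2 fold change of this group, -0.77, although its groups overlapped through library 1. AURKA, the Aurora A kinase gene, was at 71.8, 36.7 and 61.7 CPM in knockdown and 86.2, 66.3 and 75.0 CPM in control libraries and fell (-0.45), again with overlap; paired DESeq2 did not call it. MELK, a kinase gene widely used as a proliferation marker, fell (-0.68). BORA, the cofactor through which Aurora A activates PLK1, had a paired log2 fold change of -0.56 and did not pass (edgeR adjusted p 0.0923), although its groups did not overlap.

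Among genes of the ubiquitin ligase machinery and anaphase, 4 of 6 fell in the paired fit, and CDCA3 had the lowest fold change of all 43 genes. CDCA3, an F-box-like protein known to promote mitotic entry, was at 31.2, 11.2 and 20.8 CPM in knockdown libraries 1, 2 and 3 and 45.7, 40.4 and 46.7 CPM in control libraries 1, 2 and 3. The groups did not overlap, and its paired log2 fold change was -1.15 (SE 0.194, edgeR adjusted p 0.0236). The unpaired edgeR adjusted p of CDCA3 was 0.258. ESPL1, the gene of separase, was at 50.6, 26.0 and 42.8 CPM in knockdown libraries and 75.6, 71.6 and 72.3 CPM in control libraries, a level of 54.4% of the control mean. Its paired log2 fold change was -0.92 (SE 0.147, edgeR adjusted p 0.0222), and its unpaired edgeR adjusted p was 0.258. PTTG1, the gene of the separase inhibitor securin, had a paired log2 fold change of -0.41 and did not pass (edgeR adjusted p 0.0620). PTTG1 was at 77.8, 38.0 and 66.9 CPM in knockdown and 84.7, 67.3 and 83.7 CPM in control libraries, so its groups overlapped; the difference between the separase and securin genes was not tested. CDC20, the activator of the anaphase-promoting complex, was at 139, 64.6 and 112 CPM in knockdown libraries and 171, 144 and 173 CPM in control libraries, with no overlap, and fell (-0.69). UBE2C, the ubiquitin-conjugating enzyme of that complex, fell as well (-0.54). FBXO5, the interphase inhibitor of the same complex known as EMI1, was at -0.49 and did not pass (edgeR adjusted p 0.0906).

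Of 11 genes of spindle and microtubule proteins, 9 fell in the paired fit, and the 2 that did not pass, CKAP5 and CKAP2, had the smallest changes of the group. CKAP5, a microtubule polymerase also used in interphase cells, was at 462, 273 and 375 CPM in knockdown libraries 1, 2 and 3, against 516, 401 and 424 CPM in the control libraries. The groups overlapped, and its paired log2 fold change was -0.30 (SE 0.086, edgeR adjusted p 0.0618); CKAP2 was at -0.33 (adjusted p 0.0627). TACC3, which joins CKAP5 on the mitotic spindle, fell (-0.74). CKAP2L, a spindle protein gene of neural progenitors in mice, was at 64.6, 30.8 and 48.0 CPM in knockdown and 89.1, 76.5 and 73.7 CPM in control libraries, with no overlap, and fell (-0.78). GTSE1, which tracks microtubule ends, was at 72.0, 37.1 and 54.0 CPM in knockdown and 93.7, 81.9 and 83.7 CPM in control libraries, with no overlap, and fell (-0.71). The other spindle genes that fell had paired log2 fold changes of -0.79 for HMMR, -0.77 for NUSAP1, -0.75 for ASPM, -0.69 for TROAP, -0.64 for TPX2 and -0.61 for DLGAP5. HMMR, NUSAP1 and ASPM were not called by paired DESeq2. ASPM, mutated in inherited microcephaly, was the steadiest of them in control libraries, at 193, 191 and 195 CPM, against 150.0, 75.4 and 131 CPM in knockdown libraries.

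All 6 cytokinesis genes fell in the paired fit, and ANLN had the smallest change. CIT, the gene of citron kinase at the midbody, was at 58.8, 28.2 and 42.8 CPM in knockdown libraries 1, 2 and 3. In the control libraries it was at 75.6, 66.6 and 64.2 CPM, with no overlap. It fell (paired log2 fold change -0.72, SE 0.145, edgeR adjusted p 0.0271), and its unpaired edgeR adjusted p was 0.267. PRC1, which bundles the microtubules of the central spindle and is not the Polycomb complex of the same abbreviation, was at 164, 80.8 and 136 CPM in knockdown and 199, 170.3 and 194 CPM in control libraries. Its groups did not overlap either, and it fell (-0.61). ANLN, the actin-binding scaffold of the contractile ring, was at 167, 111 and 133 CPM in knockdown and 185, 174 and 162 CPM in control libraries, with overlap through library 1, and fell (-0.36). RACGAP1 and ECT2, the regulators of RHOA at the cleavage plane, had paired log2 fold changes of -0.67 for RACGAP1 and -0.56 for ECT2, and ARHGAP11A of -0.61. Counts of ARHGAP11A are uncertain, since the near-identical copy ARHGAP11B, with 73, 63 and 114 counts in knockdown and 108, 123 and 125 in control libraries, shares its sequence. ANLN was not called without pair 3 or with paired DESeq2.

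The remaining 4 genes all passed in the paired fit, downwards. MKI67, whose protein Ki-67 coats mitotic chromosomes, was at 290.0, 144 and 208 CPM in knockdown libraries 1, 2 and 3, against 422, 383 and 341 CPM in control libraries 1, 2 and 3. The groups did not overlap, and its paired log2 fold change was -0.88 (SE 0.141, edgeR adjusted p 0.0222). For MKI67 the unpaired edgeR adjusted p was 0.258. TOP2A, the topoisomerase that untangles sister chromatids, was at 667, 329 and 449 CPM in knockdown and 735, 599.5 and 599 CPM in control libraries. Knockdown library 1 was above control libraries 2 and 3, and TOP2A fell (-0.47). CDCA2, a phosphatase-targeting subunit of mitotic chromosomes, fell (-0.79), and so did DEPDC1 (-0.76). Per kilobase of annotated exon, TOP2A had the highest level of the 43 genes, at 74.8 CPM per kb in knockdown and 100.1 CPM per kb in control libraries, and CIT the lowest, at 3.27 CPM per kb in knockdown and 5.20 CPM per kb in control libraries.

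Exons of 17 of the 43 genes overlap those of a gene on the opposite strand in GENCODE 29, and in 6 of these the files list a partner with at least 10 counts in every library. The library kit keeps strand, but the sources used here do not state how the counting used it. GNB3, opposite CDCA3, had 14, 52 and 55 counts in knockdown and 26, 41 and 62 counts in control libraries. PAQR4, opposite PKMYT1, had a paired log2 fold change of -0.59 (edgeR adjusted p 0.0497), EXOSC9, opposite CCNA2, of -0.43 (0.0321) and KIAA0895, opposite ANLN, of -0.30 (0.172). FAM53C, opposite CDC25C, was at 0.17 (0.146) and DIS3, opposite BORA, at 0.05 (0.638). Exons of 4 of the 43 genes overlap those of a gene on the same strand, where a kit that keeps strand cannot tell the reads apart. These overlaps span 3181 bases in PRC1, 1787 in NUSAP1, 104 in WEE1 and 91 in CIT. Exons of BMI1 overlap those of COMMD3-BMI1 on the same strand by 1000 bases. The part of the overlaps on either strand in the results was not tested.

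In lists of other periodic cell cycle genes most genes fell. Fewer passed in lists of core subunits, with augmin between both. Beside these counts, 5.39% of all genes tested were called lower in the paired fit. Of the 4 genes of the chromosomal passenger complex, which corrects chromosome attachment, 3 fell in the paired fit, namely INCENP (-0.67), BIRC5 (-0.66) and AURKB (-0.64), and CDCA8 was at -0.55 (edgeR adjusted p 0.0502). Of 20 other periodic mitotic genes 17 fell, such as CDKN3 (-0.85), HJURP (-0.78) and TTK (-0.65), while the CDK subunit gene CKS2 did not pass (-0.13). All 13 mitotic kinesin genes fell, with a median of -0.72, among them KIF18B (-0.80), CENPE (-0.77), KIFC1 (-0.73) and KIF11 (-0.66). Paired DESeq2 called 11 of these 13 kinesin genes and 13 of the 20 other periodic genes, where it called 2.71% of all genes tested lower. Of 25 genes of replication licensing and the fork 22 fell, with a median of -0.57, among them CLSPN (-0.96), CDT1 (-0.78) and GINS4 (-0.66), and the sliding clamp gene PCNA did not pass (-0.19). The 43 genes had a median of -0.64 on the same scale, so genes of S phase fell beside those of mitosis.

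Fewer core subunits of the same machines passed. The share of all genes tested called lower was 5.39% in the paired fit. Of 15 genes of the anaphase-promoting complex, 1 fell, CDC27 (-0.46), and the median was -0.16, with ANAPC4 at -0.36 (edgeR adjusted p 0.0521), ANAPC15 at -0.41 and ANAPC2 at -0.04. In the gamma-tubulin ring complex, which nucleates microtubules, TUBG1 (-0.53) and MZT1 (-0.33) fell and the other 9 genes did not pass, among them TUBGCP4 at -0.27 and TUBGCP6 at -0.02. Of 8 genes of augmin, which branches spindle microtubules, 4 fell, among them HAUS7 (-0.54), HAUS5 (-0.50) and HAUS3 (-0.44), with HAUS1 at -0.25. All 8 augmin genes were lower in all 3 pairs, where 26.7% of all genes tested were, and the augmin median was -0.41. Of 9 genes of centriole duplication 3 fell, namely CENPJ (-0.69), CEP152 (-0.55) and SASS6 (-0.46), with CCP110 at -0.03. None of 12 genes of the contractile ring and abscission passed in the paired fit (median -0.04), with PDCD6IP at -0.25, CEP55 at -0.55 (edgeR adjusted p 0.0873), SEPT2 at 0.17 and ROCK2 at 0.01. In that list 2 genes lower and 1 higher had an unadjusted p under 0.05 in the paired fit, and paired DESeq2 called 0. At the same unadjusted p, 8 of 8 augmin, 7 of 15 anaphase-promoting complex and 6 of 9 centriole genes were lower. So were 4 of 11 gamma-tubulin genes and 1 of 8 Greatwall genes, where 1895 of the 12937 genes tested were. In the Greatwall pathway, which holds the PP2A phosphatase off during mitosis, the kinase gene MASTL fell (-0.49) and the other 7 genes did not pass (median of the list 0.02), among them PPP2CA at -0.01. These counts and medians are descriptions of lists drawn up with earlier results of these data known, and differences between the lists were not tested.

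**Figure D5:**
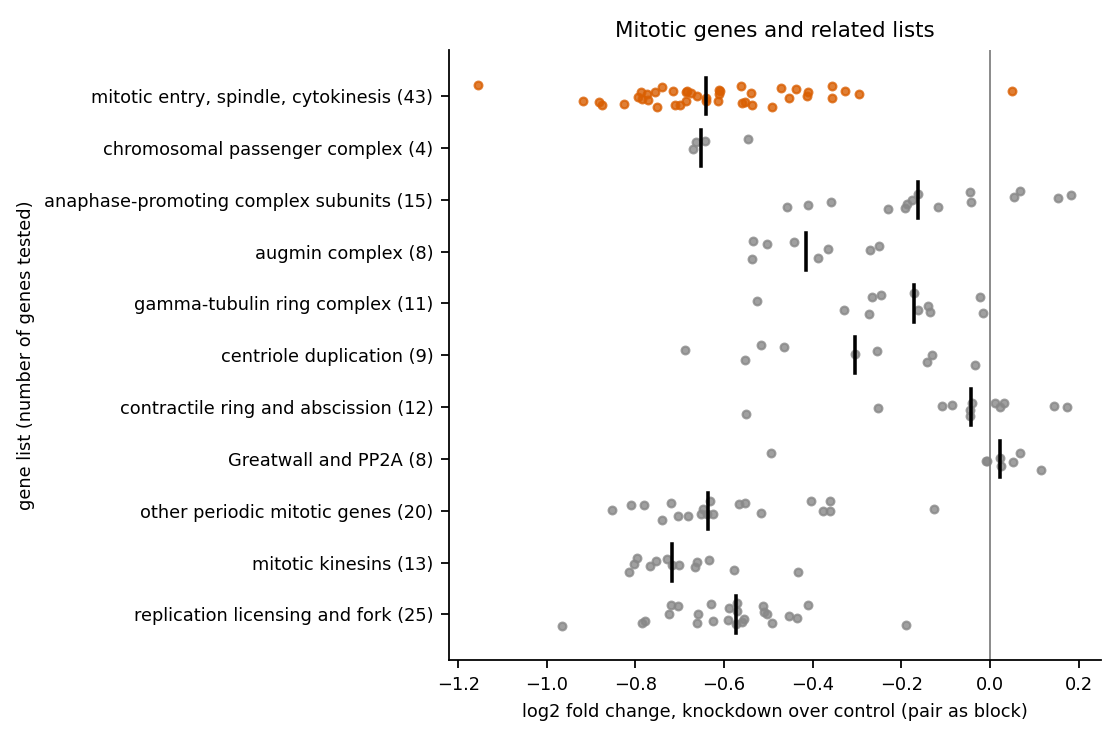
Log2 fold change, knockdown over control, in the paired fit for each gene (points) of the 43 mitotic genes (orange) and of 10 related lists (grey), with the median of each list (black bar). The periodic lists (mitotic genes, passenger complex, kinesins, replication) lie around -0.6 to -0.7. The core subunit lists lie nearer to 0, with augmin the lowest of them at -0.41.

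Levels of markers of other cell types are given beside these genes. Of all genes tested, 4.63% were called higher and 5.39% lower in the paired fit. Markers that did not pass the filter on low counts could not be called. Those tested were 10 fibroblast and mesenchyme, 6 astroglial, 8 neuronal and 10 neural stem cell markers. A further 5 endothelial, 5 oligodendrocyte lineage and 3 pluripotency markers were tested. The summed level of 10 fibroblast and mesenchyme markers was 2055 to 2797 CPM in knockdown and 1654 to 2003 CPM in control libraries, and 2 of them rose in the paired fit. COL3A1 alone was at 1156 to 1677 CPM in knockdown and 898 to 1165 CPM in control libraries. The groups were apart upwards in 0 of these 10 genes, where they were in 1200 of the 12937 genes tested. Higher in all 3 pairs were 6 of the 10, where 3306 of all genes tested were. The summed level of 8 astroglial markers was 817.3 to 932.6 CPM in knockdown and 726.3 to 797.2 CPM in control libraries, with 3 called higher. GFAP was at or near 0 counts in all libraries. The sum of 12 neuronal markers was 821.5 to 1035 CPM in knockdown and 945.1 to 1086 CPM in control libraries, with 2 called lower. That of 12 neural stem cell markers was 3039 to 4126 CPM in knockdown and 3659 to 3858 CPM in control libraries, with 1 called lower. VIM alone was at 1788 to 2419 CPM in knockdown and 1818 to 2043 CPM in control libraries. Of the 10 tested stem cell markers, 6 were lower in pair 1, 9 in pair 2 and 9 in pair 3. Of the 12937 genes tested, 6477, 6625 and 6477 were. The median paired log2 fold change of these markers was -0.23. The summed level of 7 endothelial markers was 162.0 to 306.1 CPM in knockdown and 152.0 to 265.2 CPM in control libraries, with 2 called higher. KDR alone was at 94.7 to 189.7 CPM in knockdown and 88.4 to 180.3 CPM in control libraries. VWF and CLDN5 were under 1 CPM in all libraries. Summed levels of 8 oligodendrocyte lineage markers (400.2 to 419.6 CPM in knockdown and 393.2 to 424.7 CPM in control libraries) and of 5 pluripotency markers (480.8 to 599.1 CPM in knockdown and 406.8 to 560.1 CPM in control libraries) had no member called. The part of these markers in the fall of the mitotic genes was not tested.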

How the data were processed

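Per the labels' protocols, total RNA of AF22 cells was made into strand-specific libraries. The authors deposited 1 table per library that gives a read count per gene symbol; the values are whole and their totals differ between libraries, so they were taken as raw. The submitters' processing notes list STAR 2.7.10a, Trim Galore 0.6.6, bedtools and hg38. Which program counted, with which annotation and strand setting, is not given in the sources used here.

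Counts were tested across all genes with edgeR 4.0.16 in R 4.3.3 (filterByExpr, 12937 genes kept; TMM; glmQLFit and glmQLFTest; Benjamini-Hochberg adjustment, threshold 0.05). Each SE is the log2 fold change over the root of F, without sign. Differences within pairs use log2 CPM with a prior count of 2. The members and lists were chosen with earlier results of these data known. Members described in full are, per role, those of highest mean CPM, smallest unpaired p and lowest and highest unpaired log2 fold change; of each other list, up to 3 genes of smallest and 1 of largest unpaired p are named. Of 188 other list genes 187 were found, 5 under older symbols.

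Same-numbered libraries were compared by how they deviate from their group means across genes, and correlated at 0.563, 0.467 and 0.535. Libraries of unlike number correlated at -0.342 to -0.107. A paired fit is given too, and the pairing rests on the data and not on the labels. Libraries within a group differed by more than sampling noise (chi-square per gene at least 3.19). Pipelines were tested on simulated data. Alternatives were RLE factors, total counts only, other filters, DESeq2 1.42.0, limma voom (limma 3.58.1), a threshold of 0.01, leaving out libraries or pairs, and thinning. Gene positions and exon lengths are from GENCODE 29 (GRCh38), promoters from RefSeq (GRCh38.p14). The 43 genes had 82 to 4297 counts in a library, which sets their precision.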

Additional observations from a re-analysis of the deposited data

How the results depend on the processing

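None of the 43 mitotic genes changed direction under any of the 19 alternatives, and their median log2 fold change stayed between -0.38 (without knockdown replicate 2) and -0.84 (without knockdown replicate 1). What depends on the processing is the number called. With the replicate block the paired fit called 1296 of all genes and 37 of the 43, against 0 and 0 without it. With the block, paired DESeq2 called 590 and 30, total count scaling 1283 and 38, and thinned libraries 1181 and 35. Leaving out each pair in turn, the block fit called 907 to 2296 of all genes (1320 without pair 1) and 37 to 40 of the 43. Without the block, DESeq2 called 142 and 4, and no filter on low counts called 2 and 0. Leaving out each library in turn called 0 to 665 and 0 to 31, and all of these calls came without knockdown library 1; RLE factors, total counts, at least 1 CPM in 3 libraries, limma voom and a threshold of 0.01 called 0. The log2 fold change of BMI1 passed the threshold with the block (-1.64), with DESeq2 (-1.59), with no filter (-1.61), with block and DESeq2 (-1.63), with block and total counts (-1.65) and with block and thinning (-1.60). It also passed without knockdown replicate 1 (-1.87) and, with the block, without each pair in turn (-1.46 to -1.89, and -1.58 without pair 3). Leaving out each library, it ran from -1.44 to -1.87 and did not pass without any of the other 5. With the block, DESeq2 called 2 of the 5 CDK1 regulators, 6 of 11 spindle genes, 1 of 8 augmin genes, 1 of 11 gamma-tubulin genes, 1 of 9 centriole genes, 13 of 20 other periodic genes and 11 of 13 kinesin genes. WEE1 was called under no alternative. The cause of these differences in the number called was not tested; fits that leave out a pair or a library have fewer libraries to measure the spread.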
